A study of Danio rerio with 8 samples.

Results

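Integrin subunit genes were followed in sorted endothelial cells of zebrafish embryos. The members are the genes whose name in the Ensembl name table starts with itga or itgb and a digit, or with itgae, itgal, itgam or itgav. The rule found 36 genes among 32520 in the count table, of which 22 encode alpha subunits, 12 encode beta subunits and 2 (ITGB1BP1 and itgb3bp) encode proteins named after an integrin that are not subunits. RNA sequencing libraries were made from 4 samples of ddx21_mutant embryos and 4 of ddx21_sibling embryos at 3 days post fertilisation, numbered 1 to 4 in each group. All embryos carried Tg(fli1a:nEGFP), a nuclear green reporter of endothelium, and Tg(5.2lyve1b:DsRed), a red reporter of veins and lymphatics, and cells positive for both were sorted as venous and lymphatic endothelial cells. The labels name neither the mutant allele nor the genotype of the siblings, and nothing in them says that the libraries of a group were made from different clutches or on different sorts. The p-values therefore speak only to the spread between these libraries, which may be technical. The number of embryos per library is not given in the sources used here.

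An integrin is a receptor of 1 alpha and 1 beta chain that ties the extracellular matrix, or a protein on a neighbouring cell, to the actin cytoskeleton. The chains decide the ligand: alpha5 with beta1 binds fibronectin, alphav with beta3 or beta5 binds vitronectin, alpha1 with beta1 binds collagen, and alpha6 with beta4 anchors epidermal cells to laminin in hemidesmosomes. In the mouse, beta1 integrin is known to promote signalling by the VEGFC receptor in lymphatic endothelium, and alpha9 is needed for lymphatic valves. Leukocytes use alphaL, alphaM or alphaE with beta2 or beta7, and thrombocytes, the platelets of fish, use alphaIIb (itga2b) with beta3.

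The libraries held 38459219 to 51173007 counted reads. Levels are in CPM, reads of a gene scaled to a common library size, with the library sizes adjusted by TMM, a factor that corrects for library composition. DDX21, the mutated gene, measured 233, 266, 170 and 217 CPM in mutants 1 to 4, against 245, 364, 337 and 301 CPM in siblings 1 to 4, and was lower in the mutant of all 4 pairs without passing over all genes (log2 fold change -0.50, SE 0.21, edgeR adjusted p = 1.0). All 14 measured endothelial marker genes had reads in every library, with a summed level of 3063 to 6073 CPM in mutants and 3743 to 6390 CPM in siblings. Markers of other cell types were present too: the summed level of 14 epidermal marker genes was 88068, 65024, 14027 and 6378 CPM in mutants 1 to 4, against 34193, 54452, 11126 and 4860 CPM in siblings 1 to 4. Libraries 1 and 2 of each group therefore stood apart from libraries 3 and 4, and the values of both sets of replicate numbers are given below. Markers of liver summed to 36.6 to 120 CPM in mutants and 291 to 1748 CPM in siblings.

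Of the 36 genes, 24 had reads in every library and 17 averaged at least 10 CPM over the 8 libraries. A filter on low counts kept 34 for testing, and itga6l and itgae.1 were left out. All 36 are called integrin genes below, although ITGB1BP1 and itgb3bp are not subunits. Both were among the 34, and ITGB1BP1 was among the 17. No integrin gene passed between mutants and siblings: edgeR's quasi-likelihood test called 0 of 34 at an adjusted p under 0.05, as it did 0% of the 18549 genes tested. DESeq2 and limma-voom called 0 of the integrin genes as well, where they called 62 and 0 of all 18549 genes. At an unadjusted p under 0.05, edgeR gave 1 higher, where 1.33% of all genes were, and 0 lower, where 1.67% of all genes were. A model that also held the replicate number, called the block below, gave 4 higher, where 2.98% of all genes were, and 0 lower, where 2.88% of all genes were, and again 0 at an adjusted p under 0.05 (0% of all genes). The median log2 fold change was 0.17 over the 34 genes and 0.0027 over all tested genes. The mutant was higher in 4 of 4 pairs for 4 genes, where 8% of all genes had this, and lower in 4 of 4 pairs for 2 genes, where 8.42% had it. In no integrin gene did the mutant and sibling libraries lie apart, a separation that 1.42% of all genes showed with mutants above and 1.83% with mutants below.

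**Figure D1:**
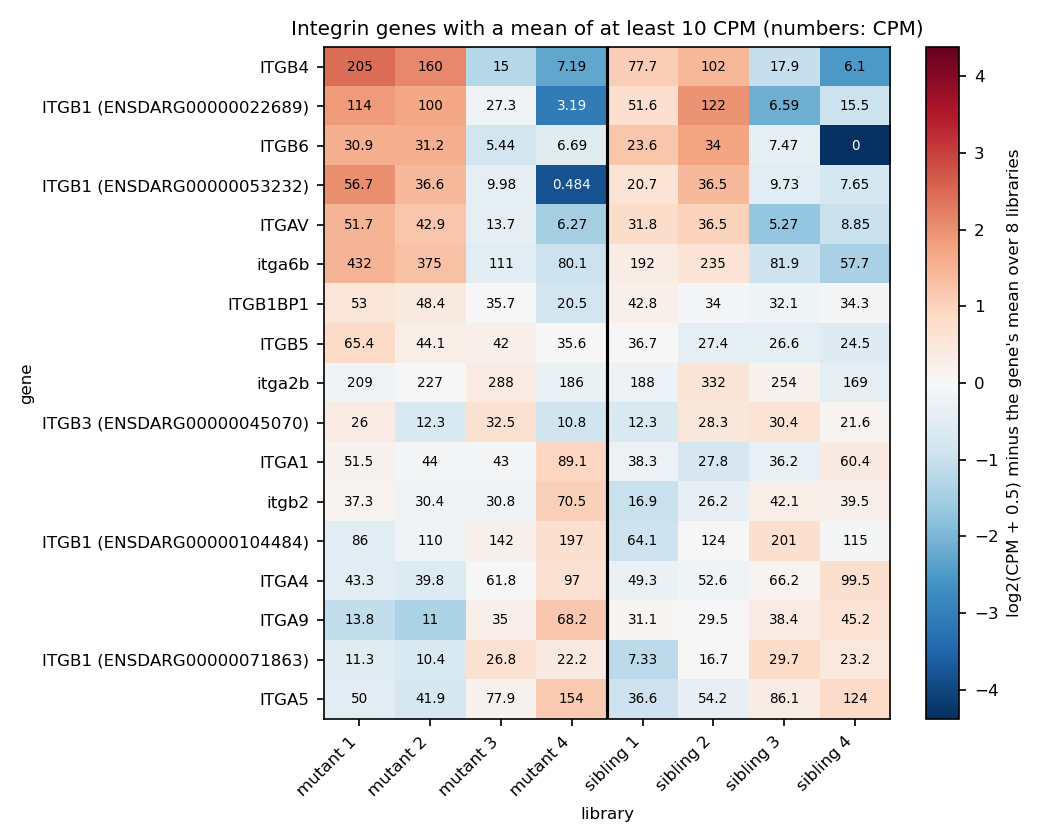
Level of the 17 integrin genes with a mean of at least 10 CPM (rows) in each library (columns, mutants left of the line). The 17 include ITGB1BP1, which is not a subunit gene. Colour is log2(CPM + 0.5) minus the gene's mean over 8 libraries and the numbers are CPM. ITGB4 to itga6b, at the top, are higher in libraries 1 and 2 of both groups, and ITGA5, at the bottom, runs from 77.9 to 154 CPM in mutants 3 and 4, against 86.1 to 124 CPM in siblings 3 and 4.

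Among the receptors of vitronectin and related ligands, ITGB5, which encodes the beta5 chain, had the smallest p of the family without the block. In that fit it was the 1 gene at an unadjusted p under 0.05. It measured 65.4, 44.1, 42.0 and 35.6 CPM in mutants 1 to 4, against 36.7, 27.4, 26.6 and 24.5 CPM in siblings 1 to 4. The mutant was higher in every pair, by 1.78-, 1.61-, 1.58- and 1.46-fold in pairs 1 to 4, and the groups overlapped only in that sibling 1 lay above mutant 4. It averaged 46.8 ± 12.9 CPM in mutants and 28.8 ± 5.41 CPM in siblings (SD, 4 libraries each). The log2 fold change was 0.70 (SE 0.26, edgeR adjusted p = 1.0), and 0.68 with the block (SE 0.19, edgeR adjusted p = 0.71). Marker sums of some other cell types were higher in the mutant of every pair too. The fold was 2.58, 1.19, 1.26 and 1.31 in pairs 1 to 4 for epidermis, and 2.13, 1.47, 1.41 and 1.43 for mesenchyme. For muscle the ratio of mutant to sibling was 2.66, 2.36, 1.71 and 0.998 in pairs 1 to 4, and for endothelium 0.771, 0.967, 0.846 and 0.951. The part of these markers in the ITGB5 values was not tested, and in bulk RNA more cells of a type and more RNA per cell cannot be told apart. Without mutant 1, sibling 3 or sibling 4 ITGB5 no longer passed an unadjusted p under 0.05.

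The alphav chain gene ITGAV, a partner of beta5, was not higher in the mutant of every pair. It measured 51.7, 42.9, 13.7 and 6.27 CPM in mutants 1 to 4, against 31.8, 36.5, 5.27 and 8.85 CPM in siblings 1 to 4. The libraries numbered 1 and 2 all lay above those numbered 3 and 4, in both genotypes (edgeR adjusted p = 0.12 for the number). The folds of ITGAV, mutant over sibling, were 1.63, 1.17, 2.60 and 0.709 in pairs 1 to 4. Its log2 fold change was 0.48 (SE 0.75), and 0.45 with the block (SE 0.36). Of the other beta chains that join alphav, ITGB3 (ENSDARG00000045070) measured 26.0, 12.3, 32.5 and 10.8 CPM in mutants 1 to 4, against 12.3, 28.3, 30.4 and 21.6 CPM in siblings 1 to 4, and followed neither genotype nor number. ITGB3 (ENSDARG00000056767) had 946, 363, 48 and 0 reads in mutants 1 to 4, against 208, 157, 104 and 0 reads in siblings 1 to 4. It was thus low or absent in replicates 3 and 4. ITGB8, the beta8 chain gene, stayed under 1 CPM in every library.

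**Figure D2:**
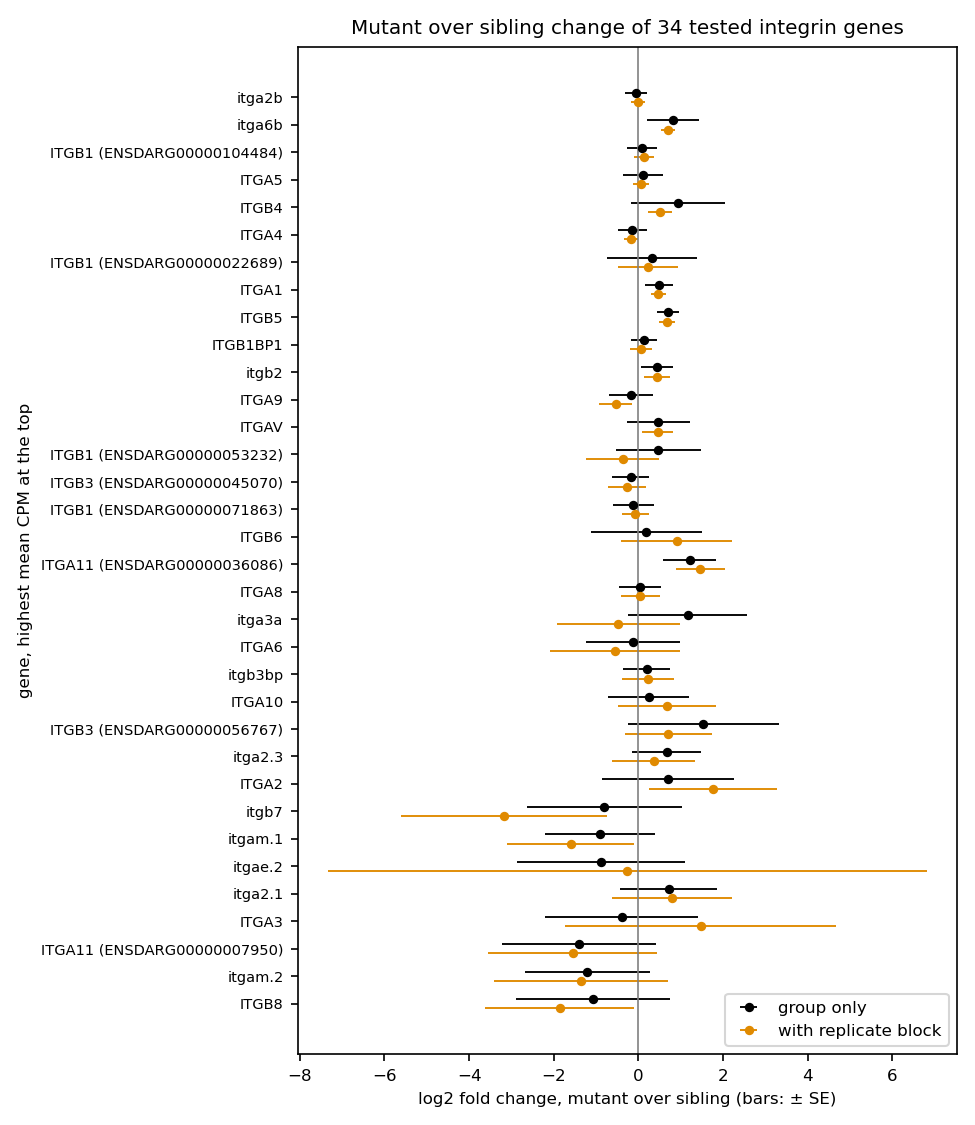
Log2 fold change, mutant over sibling, of the 34 tested integrin genes with bars of 1 SE, from the fit with the group only (black) and with the replicate block (orange). The 34 include ITGB1BP1 and itgb3bp, which are not subunit genes. ITGB5 stands at 0.70 and 0.68, and no gene passed at an adjusted p under 0.05 in either fit.

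The collagen receptors held 2 further genes that were higher in the mutant of every pair. ITGA1, the alpha1 chain, measured 51.5, 44.0, 43.0 and 89.1 CPM in mutants 1 to 4, against 38.3, 27.8, 36.2 and 60.4 CPM in siblings 1 to 4. Both genotypes were highest in replicate 4, and only sibling 4 reached into the mutants' range. The log2 fold change was 0.48 (SE 0.32, edgeR adjusted p = 1.0). With the block it was 0.47 (SE 0.18, edgeR adjusted p = 0.83), at an unadjusted p under 0.05. Without the block it was 0.19 without mutant 4, 0.74 without sibling 4 and between 0.34 and 0.60 without any other library. ITGA11 (ENSDARG00000036086), an alpha11 chain, which in mammals binds fibrillar collagen on fibroblasts, measured 8.89, 10.6, 18.7 and 16.6 CPM in mutants 1 to 4, against 5.45, 1.11, 9.5 and 7.58 CPM in siblings 1 to 4. Only sibling 3 reached into the mutants' range, and sibling 2 was far under the other siblings. Its log2 fold change was 1.21 (SE 0.62, edgeR adjusted p = 1.0) and 0.87 without sibling 2. With the block it was 1.47 (SE 0.59, edgeR adjusted p = 0.83), at an unadjusted p under 0.05. Its duplicate ITGA11 (ENSDARG00000007950) stayed at or under 1.72 CPM. ITGA10, ITGA2, itga2.1 and itga2.3, further collagen-binding alpha chains, lay between 0 and 14.1 CPM in all libraries. The mesenchyme markers summed to 5287, 4222, 1007 and 785 CPM in mutants 1 to 4, against 2480, 2868, 716 and 551 CPM in siblings 1 to 4, so their sum too was higher in the mutant of every pair. Most of the sum came from col1a1a, COL1A2 and the 2 POSTN genes, which are also in the list of matrix ligands described below. The log2 fold change was above 0 for 8 of the 9 markers and -0.22 for PDGFRA. The part of the mesenchyme markers in the ITGA1 and ITGA11 values was not tested.

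**Figure D3:**
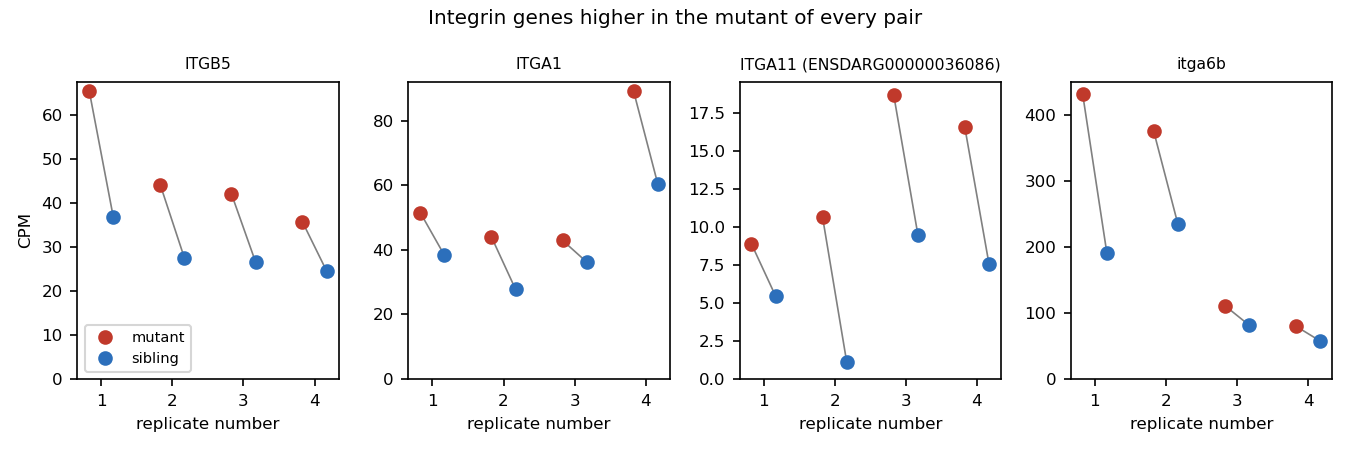
CPM of ITGB5, ITGA1, ITGA11 (ENSDARG00000036086) and itga6b by replicate number, mutants in red left of siblings in blue, with a line joining each pair. The mutant is the higher of each of the 4 pairs in all 4 genes, and itga6b is higher in numbers 1 and 2 (375 to 432 CPM in mutants, 192 to 235 CPM in siblings) than in numbers 3 and 4 (80.1 to 111 CPM in mutants, 57.7 to 81.9 CPM in siblings).

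The genes of the laminin receptor of alpha6 and beta4 were the integrin genes that passed the test between replicate numbers. The alpha6 gene itga6b measured 432, 375, 111 and 80.1 CPM in mutants 1 to 4, against 192, 235, 81.9 and 57.7 CPM in siblings 1 to 4. ITGB4, the beta4 chain that pairs only with alpha6, measured 205, 160, 15 and 7.19 CPM in mutants 1 to 4, against 77.7, 102, 17.9 and 6.10 CPM in siblings 1 to 4. In both genes the libraries numbered 1 and 2 lay above all those numbered 3 and 4, whatever the genotype. A test of the replicate number in the model with the group gave an edgeR adjusted p of 0.021 for itga6b and 0.018 for ITGB4, the 2 of 34 that passed, where 1.19% of all genes did. At an unadjusted p under 0.05, 10 of the 34 integrin genes differed between numbers, where 12.3% of all genes did. The summed epidermal markers and both of these genes were highest in library 1 of the mutants and in library 2 of the siblings, and lowest in library 4 of both, and the part of the markers was not tested. Between genotypes itga6b was higher in the mutant of every pair, with a log2 fold change of 0.82 (SE 0.61, edgeR adjusted p = 1.0). With the block it was 0.69 (SE 0.16, edgeR adjusted p = 0.65), at an unadjusted p under 0.05. Without the block it was 0.43 without mutant 1, 0.45 with limma-voom and between 0.56 and 1.18 without any other library. The folds of itga6b were 2.25, 1.60, 1.36 and 1.39 in pairs 1 to 4, beside 2.58, 1.19, 1.26 and 1.31 for the summed epidermal markers. In libraries 1 and 2 the keratin genes krt4 and krt5 made up most of that marker sum. The marker krt8 had the opposite order, at 813, 1220, 1605 and 1849 CPM in mutants 1 to 4, against 1194, 1192, 2122 and 2239 CPM in siblings 1 to 4. Its log2 fold change was -0.30, and in sibling 4 it held 2239 CPM of a marker sum of 4860 CPM. The fold of the sum in pair 4 therefore mixes markers of both directions. ITGB4 was higher in the mutants of pairs 1, 2 and 4 (log2 fold change 0.93, SE 1.11, edgeR adjusted p = 1.0), and its log2 fold change was -0.11 in replicates 3 and 4 alone. It was 0.27 without mutant 1, 0.016 with limma-voom and 0.51 with the block, and 0.57 to 1.52 without any other library.

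The relation of alpha6 to beta4 reads was not constant. There were 2.11, 2.35, 7.40 and 11.1 itga6b reads per ITGB4 read in mutants 1 to 4, against 2.47, 2.31, 4.57 and 9.46 in siblings 1 to 4. These ratios are of reads, not per gene length, and were set only between libraries. They were higher in replicates 3 and 4 of both genotypes, where the summed epidermal markers were lowest. Of the other laminin-binding alpha genes, itga3a measured 34.2, 9.32, 2.84 and 0 CPM in mutants 1 to 4, against 8.24, 6.12, 5.19 and 1.12 CPM in siblings 1 to 4, and mutant 1 stood highest. ITGB6, a beta6 chain known from mammalian epithelia, measured 30.9, 31.2, 5.44 and 6.69 CPM in mutants 1 to 4, against 23.6, 34, 7.47 and 0 CPM in siblings 1 to 4. It too was higher in numbers 1 and 2 of both genotypes, and its count of 0 in sibling 4 allows up to 0.0644 CPM. ITGA3, ITGA6 and itga6l stayed under 10 CPM in every library.

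The 4 genes named ITGB1, which encode beta1 chains, split by replicate number. RefSeq lists 4 such zebrafish genes in the assembly GRCz12tu, itgb1a and the 3 neighbours itgb1b, itgb1b.1 and itgb1b.2, and which identifier is which was not settled. Reads shared between such copies could have been split or lost in the authors' counting, so single levels are uncertain. ITGB1 (ENSDARG00000022689) measured 114, 100, 27.3 and 3.19 CPM in mutants 1 to 4, against 51.6, 122, 6.59 and 15.5 CPM in siblings 1 to 4. ITGB1 (ENSDARG00000053232) measured 56.7, 36.6, 9.98 and 0.484 CPM in mutants 1 to 4, against 20.7, 36.5, 9.73 and 7.65 CPM in siblings 1 to 4. Both were higher in every library numbered 1 or 2 than in any numbered 3 or 4. ITGB1 (ENSDARG00000071863) had the opposite order, at 11.3, 10.4, 26.8 and 22.2 CPM in mutants 1 to 4, against 7.33, 16.7, 29.7 and 23.2 CPM in siblings 1 to 4. ITGB1 (ENSDARG00000104484) measured 86.0, 110, 142 and 197 CPM in mutants 1 to 4, against 64.1, 124, 201 and 115 CPM in siblings 1 to 4, so sibling 2 lay above sibling 4.

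Summed over the 4 genes, the ITGB1 level was 268, 257, 206 and 223 CPM in mutants 1 to 4, against 144, 299, 247 and 161 CPM in siblings 1 to 4. ENSDARG00000022689 and ENSDARG00000053232 together took 63.7%, 53.3%, 18.0% and 1.65% of it in mutants 1 to 4, against 50.3%, 52.9%, 6.62% and 14.4% in siblings 1 to 4. The share was thus over 50% in all libraries numbered 1 or 2 and under 20% in the rest. ENSDARG00000104484 took 32.1%, 42.7%, 69.0% and 88.4% in mutants 1 to 4, against 44.6%, 41.5%, 81.4% and 71.2% in siblings 1 to 4. By genotype the log2 fold changes of the 4 genes lay between -0.12 and 0.48, and none passed. Of the 4, ENSDARG00000022689, ENSDARG00000071863 and ENSDARG00000104484 differed between replicate numbers at an unadjusted p under 0.05, where 12.3% of all genes did. Their edgeR adjusted p-values were 0.28, 0.38 and 0.36. ENSDARG00000053232 did not differ at that threshold (edgeR adjusted p = 0.48).

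**Figure D4:**
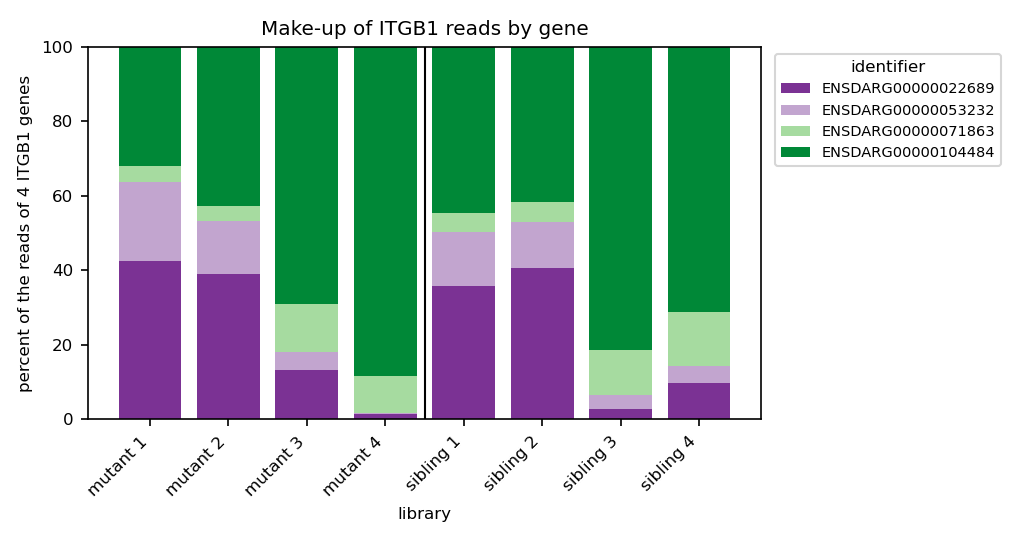
Percent of the summed ITGB1 CPM that each of 4 genes takes in each library, mutants left of siblings. The purple shares (ENSDARG00000022689 and ENSDARG00000053232) come to 63.7% in mutant 1 and 1.65% in mutant 4, against 50.3% in sibling 1 and 14.4% in sibling 4.

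The fibronectin receptor gene ITGA5 and the genes of the alpha4 and alpha9 chains were higher where the summed epidermal markers were lower. ITGA5 measured 50.0, 41.9, 77.9 and 154 CPM in mutants 1 to 4, against 36.6, 54.2, 86.1 and 124 CPM in siblings 1 to 4. ITGA4, whose product binds fibronectin and VCAM1, measured 43.3, 39.8, 61.8 and 97.0 CPM in mutants 1 to 4, against 49.3, 52.6, 66.2 and 99.5 CPM in siblings 1 to 4. ITGA9, the alpha9 chain, measured 13.8, 11, 35.0 and 68.2 CPM in mutants 1 to 4, against 31.1, 29.5, 38.4 and 45.2 CPM in siblings 1 to 4. All 3 genes were lower in every library numbered 1 or 2 than in any numbered 3 or 4. The summed endothelial markers were as well, at 3063, 3621, 5055 and 6073 CPM in mutants 1 to 4, against 3972, 3743, 5973 and 6390 CPM in siblings 1 to 4. Singly, MRC1, stab1, stab2, lyve1b and FLT4 did not hold this order, and the other endothelial markers did. Such a separation of replicate numbers was present in 4 of the 34 integrin genes, ENSDARG00000071863 being the other, where 5.42% of all genes had it, and the reverse one in 9, where 6.44% of all genes had it. For the replicate number the edgeR adjusted p was 0.080 for ITGA5, 0.14 for ITGA4 and 0.42 for ITGA9, so none of the 3 passed. What a replicate number stands for is not in the labels.

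Between genotypes ITGA5 had a log2 fold change of 0.11 (SE 0.47, edgeR adjusted p = 1.0), which was -0.41 without mutant 4, -0.12 without sibling 1 and -0.02 without sibling 2. ITGA4 lay under the sibling in each of the 4 mutants, with a log2 fold change of -0.15 (SE 0.34, edgeR adjusted p = 1.0). ITGA9 differed by pair: the mutant held 0.44 and 0.37 times the sibling's level in pairs 1 and 2, but 0.91 and 1.51 times in pairs 3 and 4. Over all libraries its log2 fold change was -0.17 (SE 0.52, edgeR adjusted p = 1.0), and -0.54 with the block (SE 0.38). In replicates 1 and 2 alone it was -1.31 (SE 0.38, edgeR adjusted p = 0.72), at an unadjusted p under 0.05, and in replicates 3 and 4 alone it was 0.30 (SE 0.42). Whether the pairs differ from each other was not tested. It was 0.08 without mutant 1, 0.12 without mutant 2 and -0.85 without mutant 4. The summed endothelial markers were 0.77, 0.97, 0.85 and 0.95 times the sibling's level in the mutants of pairs 1 to 4. ITGA8, a relative of ITGA5, measured 5.54 to 12.2 CPM in mutants and 4.72 to 13 CPM in siblings.

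**Figure D5:**
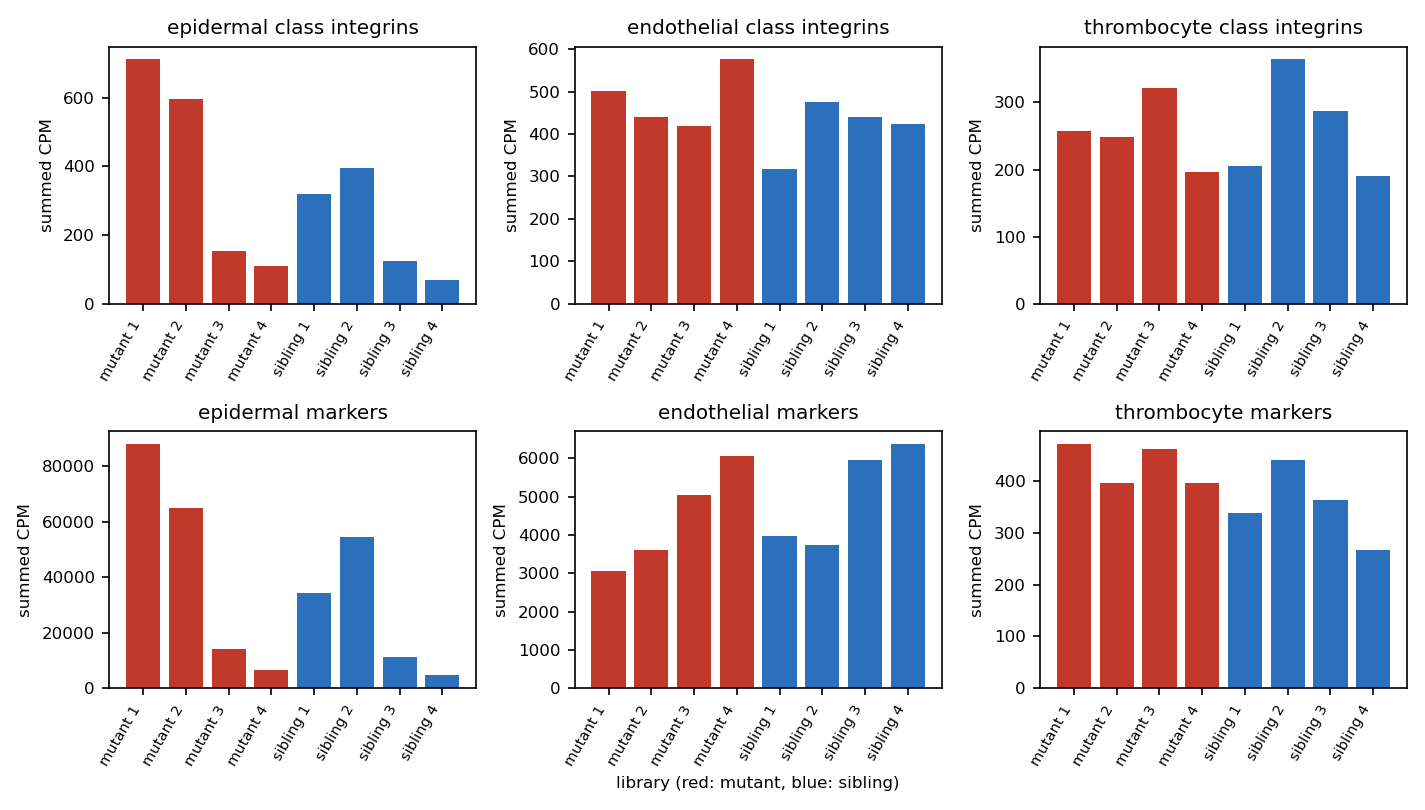
Summed CPM per library (red bars mutants, blue bars siblings) of the epidermal, endothelial and thrombocyte classes of integrin genes (top) and of the markers of the cell types they are named after (bottom). The epidermal class runs from 110 to 712 CPM in mutants and from 70.5 to 396 CPM in siblings, the endothelial class from 418 to 576 CPM in mutants and from 318 to 475 CPM in siblings.

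The genes were also grouped into classes named after a cell type, which differed in how far their levels varied with the replicate number. The class names do not show which cells the reads came from. The epidermal class (10 genes of the alpha2, alpha3, alpha6, beta4 and beta6 chains) summed to 712, 595, 154 and 110 CPM in mutants 1 to 4, against 319, 396, 123 and 70.5 CPM in siblings 1 to 4. The endothelial class (9 genes of the alpha1, alpha5, alpha9, alphav, beta1 and beta5 chains) summed to 500, 441, 418 and 576 CPM in mutants 1 to 4, against 318, 475, 439 and 424 CPM in siblings 1 to 4. The epidermal sum was higher in numbers 1 and 2 of both groups, and the endothelial sum held no such order. The endothelial class mixes genes of both orders: it contains ITGAV and ITGB1 genes that were high in the same libraries as the epidermal class. The summed endothelial markers were lower in those libraries. The ratio is of reads, not per gene length, and is set only between libraries. Reads of the epidermal class were 1.42, 1.35, 0.367 and 0.191 times those of the endothelial class in mutants 1 to 4, against 1.0, 0.834, 0.281 and 0.166 times in siblings 1 to 4, so the mutant had the higher ratio in every pair. The epidermal class had a log2 ratio of mutant to sibling sums of 0.79, beside 0.73 for the summed epidermal markers, and the endothelial class one of 0.22, beside -0.17 for the summed endothelial markers. Most of the epidermal class sum came from itga6b and ITGB4, described above. itga6b averaged 250 CPM in mutants and 141 CPM in siblings, and ITGB4 96.9 and 50.9 CPM, of class means of 393 and 227 CPM. Most of the epidermal marker sum in libraries 1 and 2 came from krt4 and krt5. The median log2 fold change of the 14 epidermal markers was 0.38, and 12 of the 14 were above 0. Those of krt8 (-0.30) and agr1 (-0.34) were under 0. The log2 ratio of the epidermal class was 0.33 without mutant 1, 1.20 without sibling 2 and between 0.49 and 1.1 without any other library. That of the endothelial class was 0.12 without sibling 1, 0.13 without mutant 4 and between 0.21 and 0.30 without any other library.

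Subunits of blood cells were found as well. The thrombocyte gene itga2b measured 209, 227, 288 and 186 CPM in mutants 1 to 4, against 188, 332, 254 and 169 CPM in siblings 1 to 4. It showed neither the epidermal nor the endothelial order, and it averaged 227 ± 43.4 CPM in mutants and 236 ± 73.8 CPM in siblings (SD, 4 libraries each). Its log2 fold change was -0.05 (SE 0.25, edgeR adjusted p = 1.0). The sign turned without mutant 4 (0.04) or sibling 2 (0.16). The 9 thrombocyte marker genes summed to 473, 397, 462 and 396 CPM in mutants 1 to 4, against 338, 441, 364 and 268 CPM in siblings 1 to 4, and were higher in the mutant of 3 of 4 pairs. The log2 fold change was above 0 for 4 of the 9, and most of the sum came from THBS1 (ENSDARG00000010785), which is also in the list of matrix ligands described below, and f13a1b, a coagulation factor XIII gene (log2 fold change 0.27). The thrombopoietin receptor gene mpl measured 35.6, 27.7, 31.0 and 23.2 CPM in mutants 1 to 4, against 40.3, 41.3, 39.5 and 23.6 CPM in siblings 1 to 4. The marker gp9 lay at 0 to 2.40 CPM in mutants and 0 to 4.61 CPM in siblings.

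The beta2 gene itgb2, shared by leukocyte integrins, measured 37.3, 30.4, 30.8 and 70.5 CPM in mutants 1 to 4, against 16.9, 26.2, 42.1 and 39.5 CPM in siblings 1 to 4. Mutant 4 stood highest, and the log2 fold change was 0.44 (SE 0.38, edgeR adjusted p = 1.0) and 0.08 without mutant 4. The leukocyte alpha genes itgae and itgam were low and uneven, at no more than 4.11 CPM in any library. ITGA4, described above, was also put in the leukocyte class, at 39.8 to 97.0 CPM in mutants and 49.3 to 99.5 CPM in siblings. itgam.1 measured 0.0479, 1.84, 2.40 and 0.484 CPM in mutants 1 to 4, against 0.553, 2.75, 1.57 and 4.08 CPM in siblings 1 to 4. itgam.2 reached 0.522 CPM in mutants and 1.25 CPM in siblings, and itgae.2 reached 2.56 CPM in mutants and 4.11 CPM in siblings. itgae.1 had 0, 0, 1 and 1 reads in mutants 1 to 4, against 5, 74, 0 and 1 reads in siblings 1 to 4. The beta7 gene itgb7, which joins alpha4 or alphaE in mammalian lymphocytes, measured 0, 3.70, 2.21 and 0 CPM in mutants 1 to 4, against 2.26, 5.14, 2.54 and 0.365 CPM in siblings 1 to 4. Each mutant held less than the sibling of its number (log2 fold change -0.80, SE 1.82, edgeR adjusted p = 1.0). ptprc, the CD45 gene of leukocytes, measured 7.57, 11, 26.3 and 4.37 CPM in mutants 1 to 4, against 11.2, 9.12, 18.2 and 6.64 CPM in siblings 1 to 4. The whole list of 24 leukocyte marker genes summed to 790 to 1430 CPM in mutants and 844 to 1043 CPM in siblings, and 13 of the 24 had 0 reads in at least 1 library. CXCR4 (ENSDARG00000041959) was the highest of them in every library, at 326 to 795 CPM in mutants and 420 to 614 CPM in siblings. SPI1 and lyz stayed at or under 1.18 and 0.454 CPM in mutants and 1.70 and 0.672 CPM in siblings. The sum therefore rests largely on few genes and was not taken as a measure of leukocytes. Of the 16 list members tested, the log2 fold change was above 0 for 8. At an unadjusted edgeR p under 0.05, 0 were higher (1.33% of all genes) and 2 lower (1.67% of all genes), and 0 passed. The 2 were the genes of the invariant chain of MHC class II, which antigen-presenting cells express, and were named after their values were seen. cd74a measured 3.74, 2.52, 5.13 and 5.20 CPM in mutants 1 to 4, against 9.30, 16.2, 21.0 and 25.9 CPM in siblings 1 to 4 (log2 fold change -2.12). cd74b measured 0.695, 11.9, 11.1 and 4.68 CPM in mutants 1 to 4, against 23.0, 24.6, 36.5 and 22.2 CPM in siblings 1 to 4 (log2 fold change -1.91). In both genes all 4 mutants lay under the lowest sibling, a separation that 1.83% of all genes showed. The part of antigen-presenting cells in the leukocyte integrin values was not tested.

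Neither of the 2 genes that do not encode subunits passed between genotypes. ITGB1BP1, whose product binds the tail of beta1 and restrains integrin activation, measured 53.0, 48.4, 35.7 and 20.5 CPM in mutants 1 to 4, against 42.8, 34, 32.1 and 34.3 CPM in siblings 1 to 4 (log2 fold change 0.14, SE 0.30, edgeR adjusted p = 1.0). itgb3bp, which encodes a centromere protein, lay at 4.50 to 8.22 CPM in mutants and 3.98 to 8.69 CPM in siblings.

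Other genes of the adhesion pathway did not pass between genotypes either. Of 55 tested matrix ligand genes 0 passed in edgeR, 1 was higher at an unadjusted p under 0.05 (1.33% of all genes) and 0 were lower (1.67% of all genes). With the block 10 were higher (2.98% of all genes) and 1 was lower (2.88% of all genes). The 10 include col1a1a, COL1A2 and the 2 POSTN genes, which are also mesenchyme markers. The 1 higher without the block was THBS1 (ENSDARG00000010785), a thrombospondin gene, at 298, 192, 233 and 233 CPM in mutants 1 to 4, against 139, 195, 171 and 117 CPM in siblings 1 to 4 (log2 fold change 0.62, SE 0.22, edgeR adjusted p = 1.0). Next by p stood lamc3 (-2.40, SE 1.30), LAMB1 (ENSDARG00000101209; 0.55, SE 0.33) and THBS1 (ENSDARG00000103775; 0.66, SE 0.40) as log2 fold changes. Of the 55 ligand genes, 9 differed between replicate numbers at an edgeR adjusted p under 0.05, where 1.19% of all genes did. LAMA5, a laminin chain and ligand of alpha6 integrins, was among them, at 173, 198, 30.9 and 18.2 CPM in mutants 1 to 4, against 101, 127, 12.7 and 19.3 CPM in siblings 1 to 4 (edgeR adjusted p = 0.020 for the number). It was high in numbers 1 and 2 of both groups, as itga6b and ITGB4 were. LAMA5 was named for this match after its values were seen. The order was not particular to it: of the 9, col18a1a, col1a1a, COL1A2, COL1A1, EGFL6 and the 2 POSTN genes had it too, and CCN1 did not.

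Of 9 tested cell surface ligands 0 passed, and 0 were higher (1.33% of all genes) and 0 lower (1.67% of all genes) at an unadjusted edgeR p under 0.05. The smallest p-values belonged to JAM3 (ENSDARG00000114589; -2.51, SE 1.81), jam2a (-0.57, SE 0.41), vcam1b, a ligand of alpha4 (-0.33, SE 0.28), and ALCAM (0.37, SE 0.32), as log2 fold changes. With the block, 1 was higher (2.98% of all genes) and 1 was lower (2.88% of all genes). The higher gene was cdh1, which is also an epidermal marker, and the lower gene was jam2a. Of these 9 ligands, 2 differed between replicate numbers at an edgeR adjusted p under 0.05, where 1.19% of all genes did. Of 82 tested adaptors and activators 0 passed, 2 were higher at an unadjusted edgeR p under 0.05 (1.33% of all genes) and 0 were lower (1.67% of all genes). With the block 7 were higher (2.98% of all genes) and 0 were lower (2.88% of all genes). Of these 82 genes, 3 differed between replicate numbers at an edgeR adjusted p under 0.05 (1.19% of all genes). PDLIM5 (ENSDARG00000027600), an actin-associated scaffold, measured 36.5, 45.1, 39.3 and 37.1 CPM in mutants 1 to 4, against 31.5, 26.7, 21.5 and 23.9 CPM in siblings 1 to 4. The 4 mutants all lay above the highest sibling (log2 fold change 0.61, SE 0.23, edgeR adjusted p = 1.0), a separation that 1.42% of all genes showed. Next came vaspb, an actin filament elongation factor (0.87, SE 0.39), the Src family kinase gene YES1 (0.91, SE 0.46) and EVL (-0.87, SE 0.46), as log2 fold changes. EVL measured 5.82, 3.88, 7.23 and 7.01 CPM in mutants 1 to 4, against 8.75, 7.72, 10.5 and 16.7 CPM in siblings 1 to 4. All 4 mutants thus lay under its lowest sibling, a separation that 1.83% of all genes showed.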

How the data were processed

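Per the submitters' processing notes, FastQC, Subread 2.0.0, featureCounts and edgeR were used with the build GRCz11; no source used here gives their order, the strand setting or the annotation release. The authors deposited whole-number counts per Ensembl gene, which were used here. Their second deposited table was labelled as batch-corrected log2 CPM. It equalled log2(CPM + 1) of those counts at all 260160 values (largest difference 5e-14), with CPM there on library totals without TMM. It was not used further.

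Symbols came from a name table (29201 of 32520 identifiers). Genes were filtered with edgeR 4.0.16 (filterByExpr, minimum count 10, minimum total 15) in R 4.3.3, scaled by TMM and fitted with the robust quasi-likelihood model, group as the only term, adjusted by Benjamini-Hochberg over 18549 genes; SE is the log2 fold change over the square root of F. The replicate number was tested by the F test of its coefficients in group plus number. Same-numbered libraries deviated together (correlations 0.22, 0.28, 0.18 and 0.30 over tested genes), so the numbers were taken as pairs. No pair of libraries within a group agreed within counting noise (chi-square over degrees of freedom 121 to 897). Scripts were tested on simulated data. Alternatives used DESeq2 1.42.0, limma 3.58.1, other scalings and left-out libraries. Per-library values were given for members with a mean of at least 10 CPM, at an unadjusted p under 0.05 in either fit, or of blood cell type. Members and lists were chosen with earlier results of these data known. A count of 0 allows up to 3 reads (0.0538 to 0.0737 CPM), for counting error only. Gene lengths were not used here, so levels are not compared between genes, and ratios and shares of reads are compared only between libraries.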

Additional observations from a re-analysis of the deposited data

Results flagged for a closer look

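Of 104 sets of 4 libraries examined (each integrin gene and each summed group, by genotype), 6 held a library far from the other 3, where chance flags about 1 in 20. For itga2.3, mutant 2 lay at 0.749 CPM, under 5.34 to 6.28 CPM in the other mutants. For itga6l, mutant 2 held 1.93 CPM and the other mutants 0 CPM. For itgae.1, sibling 2 held 1.82 CPM and the other siblings 0 to 0.12 CPM. For itgb3bp, sibling 3 held 8.69 CPM and the other siblings 3.98 to 4.76 CPM. The summed collagen-binding alpha genes stood at 129 CPM in mutant 4, above 68.7 to 74.1 CPM in the other mutants, where ITGA1 supplied 89.1 CPM. The summed leukocyte beta genes (itgb2 and itgb7) stood at 70.5 CPM in mutant 4, above 33.0 to 37.3 CPM in the other mutants.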

How the results depend on the processing

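The count of 0 integrin genes at an adjusted p under 0.05 was the same under the 16 alternatives run, DESeq2 included (62 of all genes called there). The count higher at an unadjusted p under 0.05 (1) was 4 with the replicate block and 2 with limma-voom, where 552 and 340 of all 18549 genes were. It was 3 of 35 in replicates 1 and 2 alone (386 of all 20279 genes) and 0 of 31 in replicates 3 and 4 alone (298 of all 18129 genes). It was 0 to 1 without single libraries, where 191 to 330 of 19053 to 19899 genes were, with 0 without mutant 1 or sibling 3. The count lower (0) was 1 with no filter, where 1207 of 29097 genes were. It was also 1 in replicates 1 and 2 alone, where 892 of 20279 genes were. The block changed no adjusted call. The median log2 fold change (0.17) was 0.023 with limma-voom, 0.055 in replicates 1 and 2 alone, 0.097 with the block, 0.12 with no filter and 0.046 to 0.28 without single libraries. In replicates 3 and 4 alone the direction turned for itga2b (0.17), ITGA9 (0.30) and ITGB4 (-0.11), and in replicates 1 and 2 alone for ITGA5 (-0.0023). Without single libraries ITGA5 ran from -0.41 to 0.46, ITGA9 from -0.85 to 0.12 and itga2b from -0.18 to 0.16. The class log2 ratios ran from 0.33 (without mutant 1) to 1.20 (without sibling 2) for the epidermal and from 0.12 (without sibling 1) to 0.30 (without sibling 2) for the endothelial class. For the leukocyte class the log2 ratio was 0.013 over all libraries and ran from -0.30 (without mutant 4) to 0.20 (without sibling 4). The leukocyte class holds 7 genes: ITGA4, itgb2, itgb7 and the itgae and itgam genes. ITGA4 averaged 60.5 CPM in mutants and 66.9 CPM in siblings, of class means of 107 and 106 CPM, so it weighed most. With no filter 4 integrin genes differed between replicate numbers, against 2 with the filter, where 1.19% of all genes did. The share of all genes with no filter is not given here. With the replicate block 10 matrix ligands were higher and 1 lower, 1 cell surface ligand was higher and 1 lower, and 7 adaptors were higher. Of all genes 2.98% were higher and 2.88% lower in that fit. Without single libraries 0 to 3 matrix ligands were higher (0 without mutant 1, sibling 1 or sibling 4) and 0 to 3 lower (3 without mutant 3), and 0 to 4 adaptors were higher (0 without mutant 2) and 0 to 3 lower (3 without mutant 3). Over all genes the fits without single libraries called 191 to 330 higher and 290 to 565 lower, with 544 lower without mutant 3. The cause of these shifts was not tested. Class sums per coding length were not run, since no coding lengths were used here.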

Other observations

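Some integrin genes of low level had 0 or 1 read in 1 or more libraries and many more in others. ITGA6, an alpha6 chain gene, had 1 read in mutant 1, beside 298, 492 and 369 reads in mutants 2 to 4 and 240, 399, 353 and 94 reads in siblings 1 to 4. ITGA3 had 1 read in mutant 1, beside 99, 54 and 34 reads in mutants 2 to 4 and 82, 126, 3 and 0 reads in siblings 1 to 4. itgb7 had 0, 163, 116 and 0 reads in mutants 1 to 4, against 94, 209, 125 and 17 reads in siblings 1 to 4. Of the 36 integrin genes, 12 had 0 reads in at least 1 library. Genes with at least 1 read numbered 19366, 22798, 23518 and 18051 in mutants 1 to 4, against 25329, 25086, 21623 and 18064 in siblings 1 to 4.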
